A study of Mus musculus with 10 samples.

Results

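The amino acid stress genes controlled by Atf4 and the genes of the unfolded protein response were followed across 10 arrays of mouse embryonic fibroblasts, connective tissue cells cultured from embryos. The members are a list of 37 genes, 17 of an amino acid branch and 20 of an endoplasmic reticulum (ER) branch, read from the probe set with the highest mean among those that carry the gene's symbol alone. Of these, 36 were measured among 22180 genes in all, and the folding enzyme Pdia4 was not analysed here. The study set fibroblasts of Zbtb4 knock-out embryos (5 arrays) against wild type (5 arrays), both from dorsal skin of E13.5 embryos, so that transcripts differing with the loss of Zbtb4 can be found. Zbtb4 is a repressor that recognises methylated DNA through zinc fingers. No treatment was named for either genotype, so the values describe cells in ordinary culture, not cells under an imposed stress. The labels do not describe the knock-out allele, the strain, or whether arrays of a genotype were prepared from different embryos. The p-values therefore reflect only how far these arrays spread, which may be partly technical. RNA was pooled over all cells of a culture, so fewer cells of a type and less RNA per cell cannot be told apart.

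Cells answer a shortage of amino acids and an overload of unfolded protein in the ER through linked pathways. Kinases such as Gcn2 (Eif2ak4) and Perk (Eif2ak3) phosphorylate the initiation factor eIF2, which lowers general translation but raises translation of Atf4, and Atf4 then switches on genes for amino acid synthesis and uptake. The other ER sensors act through their own factors: Ire1 (Ern1) splices the mRNA of Xbp1, and Atf6 is cut in the Golgi to release a transcription factor, and both induce chaperones and the machinery that removes misfolded proteins. Because Atf4 is controlled by translation, Xbp1 by splicing and Atf6 by cleavage, the array level of their mRNA does not measure their activity. Fibroblasts secrete much collagen and rely on the ER folding enzymes in ordinary growth.

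The branches carry different known control elements, which are shown because the members of each branch are described together below. Atf4 binds with C/EBP partners to elements with the letters TGATGNAA, known from Asns and other genes of this list. The ER stress response element (ERSE), the letters CCAAT, then 9 bases of any kind, then CCACG, is bound by Atf6 with the factor NF-Y and was defined on Hspa5 and related chaperone genes. ERSE-II has the letters ATTGG, 1 base of any kind and CCACG, and was defined on Herpud1. RefSeq promoter windows of 300 bases (250 before to 50 after the start, GRCm38.p6) were found for 34 of the 37 genes and not for Slc7a5, Atf6 and Manf. Both strands were searched, and no match of one motif overlapped a match of another. The upstream 250 bases of 6 members are printed 5′ to 3′ on the gene's strand, with the matches in capitals. Asns (chr6:7693210-7693459, minus strand), Atf3 (chr1:191183334-191183583, minus strand) and Chac1 (chr2:119350992-119351241, plus strand) hold the C/EBP-ATF element. Herpud1 (chr8:94386179-94386428, plus strand), Hsp90b1 (chr10:86705445-86705694, minus strand) and Hspa5 (chr2:34771840-34772089, plus strand) hold ER elements.
Asns: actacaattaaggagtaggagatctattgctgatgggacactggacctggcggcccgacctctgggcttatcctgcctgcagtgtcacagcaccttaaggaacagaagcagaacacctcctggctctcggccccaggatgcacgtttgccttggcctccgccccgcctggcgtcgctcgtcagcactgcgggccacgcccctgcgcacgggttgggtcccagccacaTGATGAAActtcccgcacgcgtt
Atf3: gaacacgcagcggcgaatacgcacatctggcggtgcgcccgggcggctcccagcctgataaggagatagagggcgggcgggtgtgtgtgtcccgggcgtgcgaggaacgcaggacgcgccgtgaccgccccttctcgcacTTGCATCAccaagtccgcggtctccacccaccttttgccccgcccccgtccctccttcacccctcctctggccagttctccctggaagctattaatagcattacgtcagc
Chac1: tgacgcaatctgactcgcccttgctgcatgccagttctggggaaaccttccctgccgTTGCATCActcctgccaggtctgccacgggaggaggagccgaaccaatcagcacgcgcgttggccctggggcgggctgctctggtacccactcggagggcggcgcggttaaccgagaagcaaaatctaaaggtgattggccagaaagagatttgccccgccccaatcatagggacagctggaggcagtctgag
Herpud1: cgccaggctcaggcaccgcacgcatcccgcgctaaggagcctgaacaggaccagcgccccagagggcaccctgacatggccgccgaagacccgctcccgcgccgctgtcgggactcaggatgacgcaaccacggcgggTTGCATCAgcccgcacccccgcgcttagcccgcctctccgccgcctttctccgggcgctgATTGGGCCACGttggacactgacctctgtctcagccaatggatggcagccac
Hsp90b1: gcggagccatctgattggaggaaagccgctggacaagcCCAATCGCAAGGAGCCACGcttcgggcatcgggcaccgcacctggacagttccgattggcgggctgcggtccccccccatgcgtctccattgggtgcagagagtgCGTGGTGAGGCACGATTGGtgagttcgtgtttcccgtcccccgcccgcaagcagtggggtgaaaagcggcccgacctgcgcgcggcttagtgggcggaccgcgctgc
Hspa5: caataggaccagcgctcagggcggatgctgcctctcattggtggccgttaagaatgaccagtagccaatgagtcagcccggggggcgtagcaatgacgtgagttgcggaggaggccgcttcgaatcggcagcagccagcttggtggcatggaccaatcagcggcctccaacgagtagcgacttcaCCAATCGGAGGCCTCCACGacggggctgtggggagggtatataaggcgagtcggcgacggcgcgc

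The C/EBP-ATF letters were found in 6 of the 16 amino acid genes with a window, namely Asns, Atf3, Chac1, Pck2, Trib3 and Vldlr, and in 1 of the 18 ER genes with a window, Herpud1. They occur in 3.97% of all 32851 windows. ERSE was found in 8 of the 18 ER genes, Hspa5, Hsp90b1, Calr, Canx, Creld2, Dnajc3, Pdia6 and Syvn1, and in 0 of the 16 amino acid genes, while only 39 of all windows, 0.119%, hold it. ERSE-II was found in Herpud1 alone among the members and in 0.0365% of all windows. Hsp90b1, the ER member of the Hsp90 family, held 2 ERSE matches on opposite strands. The core letters of the Xbp1 site, TGACGTGG, were in 0 of the members' windows and in 0.676% of all. These are matches of letters in a short window and do not show binding, and the elements were first described on genes of these families, so their presence here is no independent result.

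**Figure D1:**
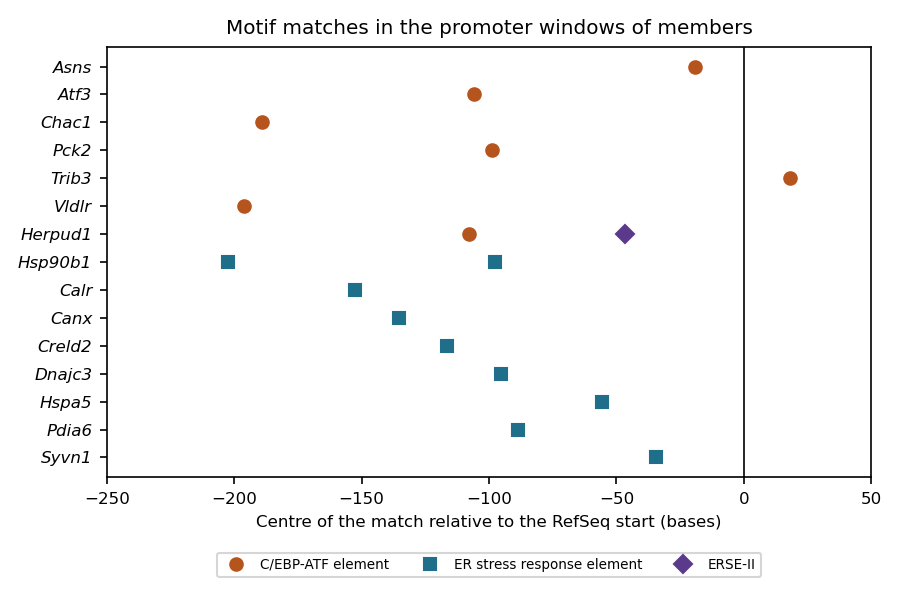
Matches of 3 motifs in the RefSeq promoter windows of the 15 members that hold one, by distance of the match's centre from the start in bases; the line marks the start. C/EBP-ATF matches lie in the upper 7 genes, with Trib3 the only member whose match lies after the start, and ERSE matches lie in the 8 genes below Herpud1.

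The labels were checked first. Zbtb4 had log2 values of 5.44, 5.76, 5.04, 5.62 and 5.39 on knock-out arrays 1 to 5 and of 6.06, 6.03, 5.94, 6.23 and 6.11 on wild-type arrays 1 to 5, so the groups did not overlap (difference -0.62, standard error 0.12, limma adjusted p = 0.628, exact permutation p = 0.00794). The brightest of 12 fibroblast markers were Col1a2 at 11.63 in both genotypes, Vim at 12.11 and 12.14 and Fn1 at 11.99 and 11.89 (knock-out and wild-type means). The dimmest were Lum at 5.58 and 5.89, Dcn at 6.74 and 6.79 and Pdgfra at 7.08 and 7.43. The mean deviation of the 12 markers from their own means over all arrays ran from -0.25 on wild-type array 5 to 0.24 on wild-type array 1. Wild-type array 5 had the lowest value for 5 of the 12. Y-linked genes were high on arrays 1 and 3 of each genotype (mean of Eif2s3y, Kdm5d and Uty 5.89 to 6.42) and low on the other 6 arrays (2.49 to 2.78), so high and low Y-linked levels were equally frequent in both genotypes. Arrays of both levels within a genotype cannot all repeat the same culture, so the spread within a genotype is not only technical. How many embryos the arrays represent is not known.

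No member differed between genotypes beyond the spread of the arrays. In limma with Benjamini-Hochberg adjustment over 22180 genes, 0 of 36 members had an adjusted p under 0.05, as did 0.0% of all genes, and the members' adjusted p-values ran from 0.830 to 0.993. At an unadjusted p under 0.05 there was 1 member, Psat1, against 5.98% of all genes, or 2.73% counting only genes lower in the knock-out as Psat1 was, and no member had an exact permutation p under 0.05. The arrays of the genotypes overlapped for all 36 members, where 0.987% of all genes did not overlap. Means lay lower on the knock-out arrays for 30 of 36 members, against 49.3% of all genes. All 17 amino acid genes were among them, with a median log2 difference of -0.12, and 13 of 19 ER genes, with a median of -0.042, while the median over all genes was 0.0020. Under quantile normalization the counts were 15 of 17 and 12 of 19. The amino acid median minus the ER median was -0.077, and this gap depended on knock-out array 2. Without that array, 12 of 17 amino acid means were lower, the amino acid median came to -0.051 and the ER median to -0.042, and the gap between them to -0.0088. The counts also differed with the Y-linked level. On the 4 arrays of high level 4 of 17 amino acid means and 8 of 19 ER means were lower in the knock-out (medians 0.065 and 0.023), against 44.7% of all genes on those arrays. On the 6 arrays of low level 17 and 14 were (medians -0.31 and -0.099), against 53.2% of all genes. The arrays with a low level include knock-out array 2, but the pattern was not confined to it. The mean deviation of the amino acid members from their 10-array means was -0.12 and -0.095 on knock-out arrays 4 and 5. On wild-type arrays 2, 4 and 5 it was 0.25, 0.14 and -0.15. On the arrays of high level it was 0.10 and 0.15 in the knock-out and 0.14 and -0.034 in the wild type. No member passed a test of the difference between the levels.

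**Figure D2:**
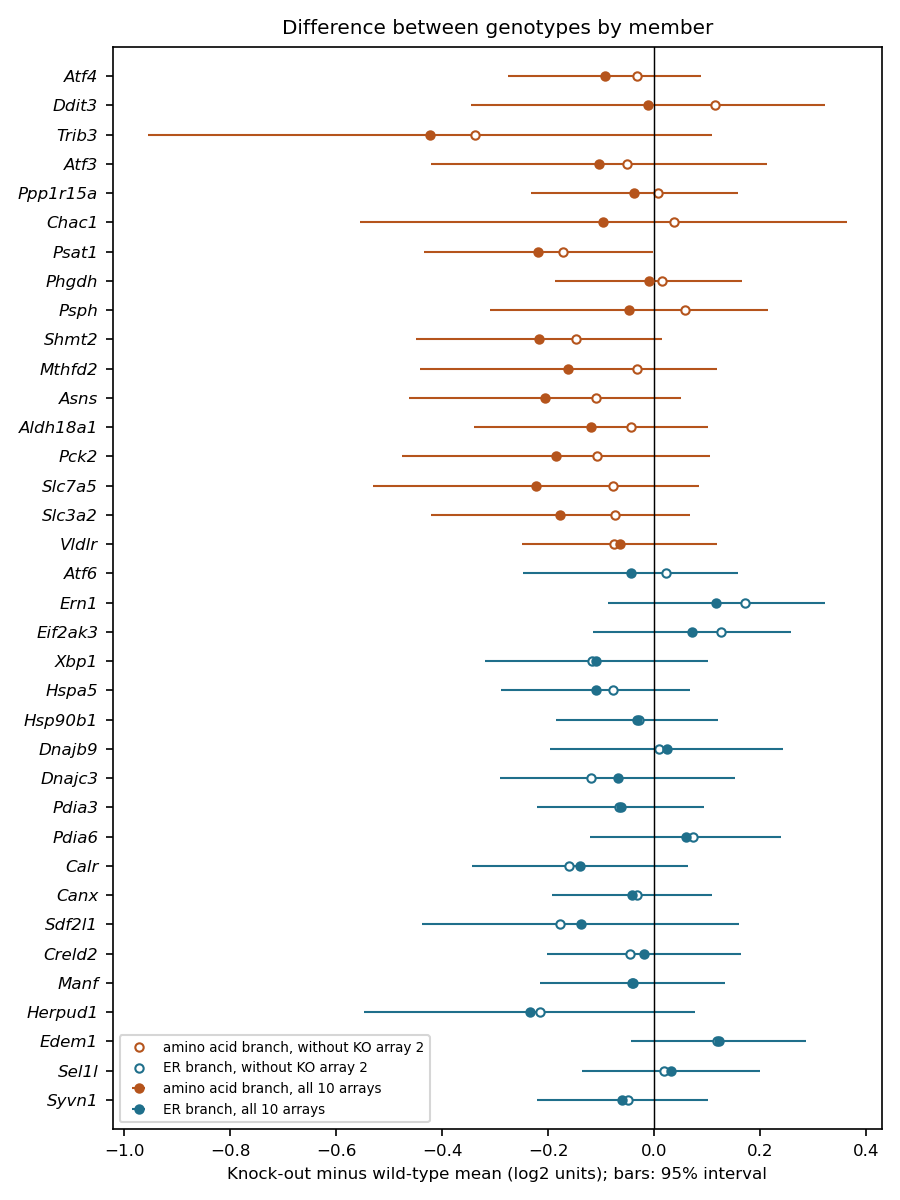
Difference between genotype means for each member in log2 units (filled points, with 95% intervals from limma) and the same difference without knock-out array 2 (open points), for the amino acid branch (brown) and the ER branch (blue). All but 1 of the intervals include 0, the exception being Psat1; without the array Slc7a5 stands at -0.078 in place of -0.22 and Mthfd2 at -0.033 in place of -0.16, while Edem1 stays at 0.12.

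Atf4 and the regulators it induces all had a lower mean in the knock-out, with a median difference of -0.095, or -0.013 without knock-out array 2. Atf4, the factor of the amino acid response, had log2 values of 10.55, 10.16, 10.48, 10.42 and 10.39 on knock-out arrays 1 to 5 and of 10.51, 10.56, 10.37, 10.54 and 10.50 on wild-type arrays 1 to 5. Knock-out array 2 was the lowest of all, and the other 9 arrays lay between 10.37 and 10.56. The genotypes differed by -0.094 (standard error 0.084, limma adjusted p = 0.881), and by -0.033 without that array.

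Ddit3 encodes Chop, a factor that promotes death in prolonged ER stress. Its values were 8.18, 7.45, 8.19, 8.06 and 7.90 in the knock-out and 8.26, 8.23, 7.73, 7.94 and 7.69 in the wild type. The genotypes overlapped almost fully, with a difference of -0.012 (standard error 0.15, limma adjusted p = 0.993). Quantile normalization gave 0.0089, and omitting knock-out array 2 gave 0.11.

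Trib3 encodes a pseudokinase that feeds back on Atf4 and Chop, and it had the largest difference of the members. Its values were 5.87, 5.44, 6.53, 5.37 and 5.70 in the knock-out and 6.53, 6.65, 6.10, 6.36 and 5.39 in the wild type. Wild-type array 5 lay with the low knock-out arrays and knock-out array 3 with the high wild-type ones. The genotypes differed by -0.42 (standard error 0.25, 95% interval -0.96 to 0.11, limma adjusted p = 0.842, exact permutation p = 0.190), and by -0.63 to -0.31 when any 1 array was omitted.

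The other 3 regulators ran over similar ranges in both genotypes. Chac1, an enzyme that degrades glutathione, ran from 5.91 on array 2 to 6.87 on array 3 in the knock-out and from 5.89 on array 5 to 6.92 on array 2 in the wild type. Atf3, a stress-induced repressor of the ATF family, ran from 5.83 to 6.37 in the knock-out and from 5.81 to 6.40 in the wild type. Ppp1r15a encodes Gadd34, which returns eIF2 to its active form, and ran from 6.60 to 6.87 and from 6.69 to 7.05. Their differences were -0.096, -0.10 and -0.038, and without knock-out array 2 those of Chac1 and Ppp1r15a turned to 0.038 and 0.0075.

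Enzymes of serine and one-carbon metabolism held the members with the smallest p-values. Psat1, the aminotransferase of serine synthesis, had values of 8.19, 7.70, 7.91, 7.75 and 7.86 in the knock-out and 8.10, 8.17, 8.11, 8.22 and 7.91 in the wild type. Knock-out arrays 2, 4 and 5 lay below every wild-type array, while array 1 lay among the wild type. The genotypes differed by -0.22 (standard error 0.10), or 1.16-fold lower in the knock-out (unadjusted limma p = 0.0474, adjusted p = 0.830, exact permutation p = 0.0873).

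Shmt2, the mitochondrial hydroxymethyltransferase that passes a carbon from serine to folate, had values of 9.33, 8.76, 9.23, 9.01 and 8.87 in the knock-out and 9.23, 9.25, 9.28, 9.38 and 9.14 in the wild type. Again knock-out arrays 2, 4 and 5 lay below the wild type and arrays 1 and 3 within it. This gave a difference of -0.22 (standard error 0.11, limma adjusted p = 0.833).

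Asns, which makes asparagine and is a standard readout of Atf4, had values of 9.02, 8.52, 9.19, 8.88 and 8.89 in the knock-out and 9.02, 9.22, 9.00, 9.32 and 8.97 in the wild type. Knock-out array 2 stood lowest, at -0.48 from the mean of the other knock-out arrays. The difference of -0.21 (standard error 0.12, limma adjusted p = 0.842) came to -0.11 without it.

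The remaining enzymes lay closer together. Phgdh and Psph, the first and last enzymes of serine synthesis, differed by -0.011 and -0.047, and both turned to positive values without knock-out array 2, 0.015 and 0.059. Mthfd2, the mitochondrial folate enzyme, differed by -0.16 and by -0.033 without that array, on which it deviated by -0.64 from the mean of the other knock-out arrays. Aldh18a1, which starts proline synthesis, differed by -0.12 and Pck2, the mitochondrial carboxykinase, by -0.19, or -0.044 and -0.11 without that array.

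Slc7a5 and Slc3a2 encode the light and heavy chain of the transporter that brings leucine and other large amino acids into the cell. Slc7a5 had values of 10.16, 9.41, 10.17, 10.08 and 10.12 in the knock-out and 10.14, 10.45, 10.07, 10.33 and 10.06 in the wild type. Knock-out array 2 deviated by -0.72 from the mean of the other knock-out arrays, and the other 4 knock-out arrays lay within the wild-type range. Slc3a2 moved likewise, from 8.37 on that array to 8.99 at most in the knock-out, against 8.82 to 9.14 in the wild type. Their differences of -0.22 and -0.18 came to -0.078 and -0.074 without the array. Vldlr, a lipoprotein receptor that Perk and Atf4 signalling can induce, differed by -0.065 and was the one amino acid member that did not follow the others over the arrays.

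**Figure D3:**
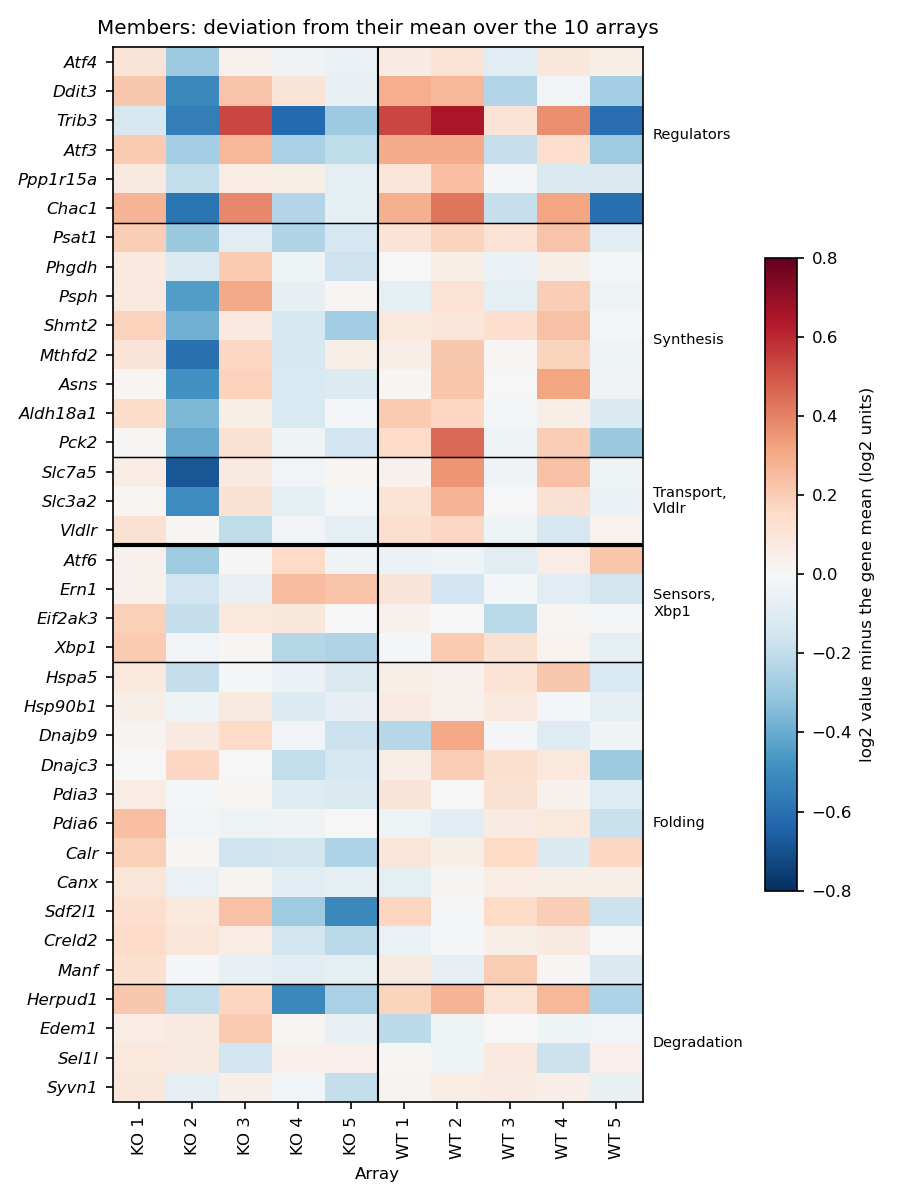
Deviation of each of the 36 measured members (rows, grouped by role, the thick line parting the amino acid branch above from the ER branch below) from its own mean over the 10 arrays (columns), in log2 units. Knock-out array 2 is low through most of the amino acid branch, 12 of 17 genes having their lowest value there, against 2 of 19 in the ER branch.

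The 4 genes of ER sensing divided by sign, Atf6 and Xbp1 with a lower mean in the knock-out and Ern1 and Eif2ak3 with a higher one. Atf6 had values of 7.25, 6.93, 7.23, 7.37 and 7.19 in the knock-out and 7.17, 7.18, 7.13, 7.28 and 7.44 in the wild type, and the groups overlapped (difference -0.045, standard error 0.094, limma adjusted p = 0.955; 0.022 without knock-out array 2). Ern1, the gene of Ire1, had values of 6.38, 6.19, 6.29, 6.59 and 6.57 in the knock-out and 6.45, 6.19, 6.34, 6.26 and 6.20 in the wild type. Knock-out arrays 4 and 5 were the highest of all, the difference was 0.12 (standard error 0.094, limma adjusted p = 0.865), and it stayed positive with each array left out, from 0.070 to 0.17. Eif2ak3, the gene of Perk, had values of 5.81, 5.43, 5.71, 5.71 and 5.62 in the knock-out and 5.66, 5.63, 5.41, 5.63 and 5.61 in the wild type, a difference of 0.071 (standard error 0.086, limma adjusted p = 0.916).

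Xbp1, whose mRNA Ire1 splices, had values of 7.21, 6.98, 7.01, 6.77 and 6.76 in the knock-out and 6.99, 7.21, 7.12, 7.03 and 6.93 in the wild type. Knock-out arrays 4 and 5 lay below the other 8 arrays, and knock-out array 2 did not stand apart. This gave a difference of -0.11 (standard error 0.098, limma adjusted p = 0.881). The probe set gives total Xbp1 signal, and spliced mRNA was not analysed here.

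Chaperones and folding enzymes had a lower mean in 9 of 11 cases, with a median of -0.042. Hspa5 encodes BiP, the main ER chaperone, and had values of 9.22, 8.95, 9.13, 9.09 and 9.02 in the knock-out and 9.18, 9.17, 9.25, 9.35 and 9.01 in the wild type (difference -0.11, standard error 0.083, limma adjusted p = 0.858). Knock-out array 2 was the lowest of all and wild-type array 4 the highest, and the other arrays of the genotypes overlapped. Hsp90b1 encodes Grp94 and had values of 11.22, 11.14, 11.25, 11.07 and 11.11 in the knock-out and 11.24, 11.21, 11.26, 11.16 and 11.10 in the wild type, a difference of -0.033 with a 95% interval from -0.18 to 0.12 (limma adjusted p = 0.955).

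Calr, the lectin chaperone calreticulin, had values of 10.81, 10.64, 10.47, 10.48 and 10.38 in the knock-out and 10.72, 10.67, 10.78, 10.51 and 10.79 in the wild type. Knock-out arrays 3, 4 and 5 lay below all wild-type arrays, and the difference was -0.14 (standard error 0.094, limma adjusted p = 0.851). Its membrane-bound partner Canx differed by -0.042 and the disulfide isomerase Pdia3, which works with both, by -0.063. Pdia6, another isomerase, differed by 0.059.

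Among the cochaperones of BiP, Dnajb9 differed by 0.024, Dnajc3 by -0.069 and Sdf2l1 by -0.14. Sdf2l1 spread most within the folding group, from 6.31 on knock-out array 5 to 7.06 on knock-out array 3. The secreted ER stress proteins Creld2 and Manf differed by -0.019 and -0.041. The sign of Creld2 turned under quantile normalization, to 0.015.

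Genes of ER-associated degradation went both ways. Herpud1, a membrane protein that helps assemble the degradation complex, had values of 7.82, 7.41, 7.77, 7.09 and 7.35 in the knock-out and 7.78, 7.87, 7.72, 7.87 and 7.36 in the wild type. Low values on knock-out arrays 2 and 5 were matched by wild-type array 5, and knock-out array 4 was the lowest of all. The difference of -0.23 (standard error 0.14, limma adjusted p = 0.842) was the largest of the ER branch. Edem1, which draws misfolded glycoproteins out of the folding cycle, had values of 7.52, 7.54, 7.67, 7.48 and 7.40 in the knock-out and 7.25, 7.42, 7.47, 7.43 and 7.44 in the wild type, a difference of 0.12 (standard error 0.076, limma adjusted p = 0.842, exact permutation p = 0.0635). Edem1 was the only member with 2 probe sets, and the dimmer one differed the other way, by -0.079. Sel1l and Syvn1, partners in the ubiquitin ligase of this pathway, differed by 0.032 and -0.060.

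The arrays of a genotype also differed among themselves, and the branches did so in different ways. The spread within genotypes (pooled SD of log2 values) had a median of 0.21 over the amino acid genes, 0.12 over the ER genes and 0.16 over all genes. Trib3, Chac1 and Ddit3 were the most variable members, with pooled SDs of 0.48, 0.41 and 0.29, and Canx and Hsp90b1 the least, with 0.068 and 0.072. As a description of each array, the members' mean deviation from their 10-array means was taken per branch. The amino acid branch gave 0.10, -0.39, 0.15, -0.12 and -0.095 on knock-out arrays 1 to 5 and 0.14, 0.25, -0.034, 0.14 and -0.15 on wild-type arrays 1 to 5. The ER branch gave 0.11, -0.035, 0.032, -0.078 and -0.12 and then 0.016, 0.039, 0.063, 0.033 and -0.062. Knock-out array 2 was therefore far below the rest in the amino acid branch and near the middle in the ER branch as a whole. The ER groups differed on that array: the sensing genes gave -0.16, their lowest of all arrays, folding genes 0.0093 and degradation genes -0.030. Among the sensing genes, Atf6, Ern1 and Eif2ak3 deviated there by -0.33, -0.27 and -0.28 from the mean of the other knock-out arrays, and Xbp1 by 0.042.

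The same arrays stood out gene by gene. Knock-out array 2 had the lowest of the 10 values for 12 of 17 amino acid genes and 2 of 19 ER genes, against 11.5% of all genes. Wild-type array 2 had the highest value for 9 of 17 amino acid genes and 3 of 19 ER genes, against 10.6% of all genes. Knock-out arrays 4 and 5 held the lowest value for 9 of 19 ER genes and 2 of 17 amino acid genes, against 20.8% of all genes. On knock-out array 2, the median amino acid gene deviated by -0.39 from the mean of the other knock-out arrays, and the median ER gene by 0.0055. These counts describe arrays picked out after their values were seen and carry no test.

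**Figure D4:**
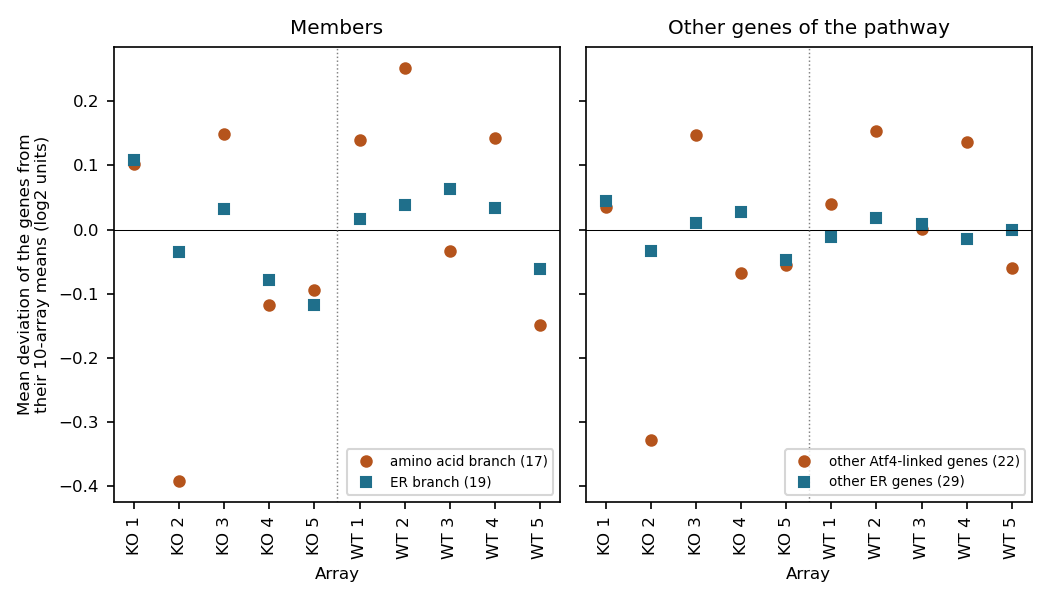
Mean deviation of gene groups from their own 10-array means, in log2 units, on each of the 10 arrays, for the members (left) and for other genes of the same pathways (right), with the number of genes in brackets. Knock-out array 2 stands at -0.39 for the amino acid members and -0.33 for the other Atf4-linked genes, against -0.035 and -0.033 for the ER groups.

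Other cell properties moved with parts of this pattern. The mean deviation of 9 markers of dividing cells was -0.42 on knock-out array 4, -0.18 on knock-out array 5 and -0.19 on wild-type array 5, the 3 arrays that were also lowest in the ER branch, and -0.090 to 0.23 elsewhere. It was 0.0093 on knock-out array 2, the lowest array of the amino acid branch. With genotype means subtracted, the median correlation of these markers with ER genes was 0.52 (0.56 without knock-out array 2), and with amino acid genes 0.22 (0.49 without it). All 9 markers had a lower mean in the knock-out, and their part in the values of either branch was not tested. Skeletal muscle markers (3 of 7 with a higher mean) were high on the same 3 arrays, at 0.24, 0.26 and 0.21, and ran from -0.22 to -0.019 on the others. Of these, Des, an intermediate filament gene, had means of 6.98 and 6.53 and Actc1, an actin of embryonic muscle, of 5.41 and 5.02 (knock-out and wild type). The factors that define the lineage had means of 4.03 and 3.91 (Myod1) and of 4.27 and 4.29 (Myog). The part of these markers was not tested. Macrophage markers (9 of 10 with a higher mean) ran from -0.61 to 0.87 over the knock-out arrays and from -0.29 to 0.12 over the wild type, with -0.19 on knock-out array 2, and their part was not tested either.

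The amino acid members varied together from array to array. After each genotype's mean was subtracted, the median Pearson correlation over the 136 pairs of amino acid genes was 0.71 across the 10 arrays, against 0.0095 over all pairs of genes. Of the amino acid pairs 84.6% exceeded 0.5, against 9.46% of all pairs of genes. Over the 171 pairs of ER genes the median was 0.34, and over the 323 pairs across branches it was 0.24. Without knock-out array 2 these medians were 0.62, 0.35 and 0.35. All pairs share the same 10 arrays, so they are a description of these cultures, with no test.

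Within branches some members stood apart. Chac1 (r = 0.957), Slc3a2 (0.925) and Aldh18a1 (0.920) followed the mean of the other 16 amino acid genes most closely, and Vldlr did not follow it (-0.020). In the ER branch Syvn1 and Xbp1 were closest to the mean of the other members (0.900 and 0.895), whereas the sensors Ern1 and Atf6 and the ligase partner Sel1l ran against it (-0.407, -0.315 and -0.207). The 9 measured ER genes with an ERSE or ERSE-II match, as printed for Hspa5, Hsp90b1 and Herpud1, had a median pairwise correlation of 0.50, and the other 10 ER genes, which include Atf6 and Manf without a window, 0.00042. This split overlaps with role in part. Most genes with a match are folding genes, but Herpud1 and Syvn1 are degradation genes. The others include every sensor gene and Sel1l, but also the folding genes Dnajb9, Pdia3, Sdf2l1 and Manf. The folding genes as a group, with or without a match, had a median of 0.46. Neither the part of the motif nor that of role was tested. Among amino acid genes the medians were 0.79 for the 6 with a C/EBP-ATF match and 0.75 for the 11 others, which include Slc7a5 without a window.

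For 6 pairs correlations were computed over the 10 arrays with permutation tests of 100000 resamples, two-sided and adjusted over the pairs. Whether the 10 arrays are independent samples is not known. Atf4 and Asns gave r = 0.865 and rho = 0.782 (permutation p = 0.00304 and 0.0104, adjusted 0.0159 and 0.0312), and r = 0.694 without knock-out array 2 and wild-type array 3, those farthest from the median of Atf4. Asns and Psat1 gave r = 0.764 and rho = 0.891 (permutation p = 0.00613 and 0.00116, adjusted 0.0159 and 0.00696), and r = 0.523 without knock-out array 2 and wild-type array 4. Ddit3 and Trib3 gave r = 0.645 and rho = 0.685 (permutation p = 0.0464 and 0.0356, adjusted 0.0696 and 0.0427), and r = 0.390 without knock-out array 2 and wild-type array 5.

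The other pairs include genes of the ER branch. Hspa5 and Hsp90b1 gave r = 0.530 and rho = 0.624 (permutation p = 0.114 and 0.0602, adjusted 0.114 and 0.0602), and r = 0.820 without knock-out array 2 and wild-type array 4. Xbp1 and Hspa5 gave r = 0.553 and rho = 0.721 (permutation p = 0.0963 and 0.0232, adjusted 0.114 and 0.0348), and r = 0.482 without knock-out arrays 4 and 5. Asns and Hspa5, the pair across branches, gave r = 0.771 and rho = 0.733 (permutation p = 0.00794 and 0.0204, adjusted 0.0159 and 0.0348), and r = 0.408 without knock-out array 2 and wild-type array 4. Without the 2 arrays left out for each pair, rho was 0.738, 0.786, 0.619, 0.762, 0.643 and 0.476 in the order given. Those arrays were the farthest from the median of the first gene, and leaving out such arrays can by itself lower a correlation. With genotype means subtracted the 6 correlations were 0.836, 0.674, 0.708, 0.483, 0.462 and 0.701 in the order given, and 5 arrays of a genotype are too few for a value within it.

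**Figure D5:**
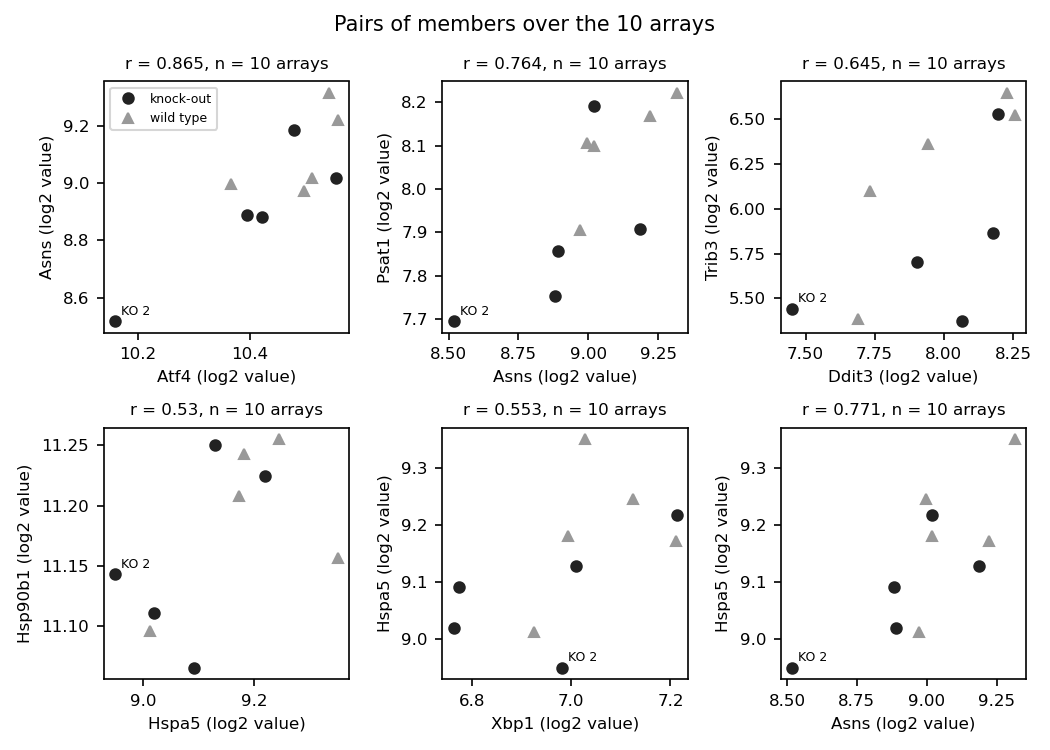
Log2 values of 6 pairs of members over the 10 arrays (black circles, knock-out; grey triangles, wild type), with Pearson's r above each panel and knock-out array 2 labelled. Knock-out array 2 is at the low end of both axes for Atf4 with Asns and for Asns with Hspa5, but not on the Xbp1 axis.

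Other genes of the same pathways were taken from a list of their own. Of 22 measured genes linked to Atf4 and the integrated stress response, 15 had a lower mean in the knock-out, against 49.3% of all genes. The median log2 difference was -0.061, and 0 passed over all genes. At an unadjusted limma p under 0.05 there were 3, all lower in the knock-out. Over all genes the share was 5.98%, or 2.73% counting only genes lower in the knock-out. Bcat1, which transfers the amino group of branched-chain amino acids, had values of 7.64, 7.09, 7.52, 7.39 and 7.38 in the knock-out and 7.61, 7.83, 7.88, 7.72 and 7.80 in the wild type. Only knock-out array 1 reached above the lowest wild-type array (difference -0.36, standard error 0.10, limma adjusted p = 0.804). Gpt2, the mitochondrial alanine aminotransferase, had values of 6.95, 6.42, 7.04, 6.61 and 6.80 against 7.37, 7.55, 7.15, 7.17 and 6.90 (difference -0.46, standard error 0.14, limma adjusted p = 0.821).

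Slc1a5, a glutamine transporter, had values of 7.07, 6.62, 7.37, 5.62 and 5.64 in the knock-out and 7.65, 7.60, 7.14, 7.74 and 6.73 in the wild type. Knock-out arrays 4 and 5 were the lowest of all, at 5.62 and 5.64 against 6.62 or more elsewhere, and the difference was -0.91 (standard error 0.33, limma adjusted p = 0.821). Most of this list nonetheless shared the low knock-out array 2, with the lowest value there for 14 of 22 genes, against 11.5% of all genes. Without that array 11 of 22 means were lower, against 48.6% of all genes, and the median was 0.017. Of 29 other ER folding and degradation genes, 14 had a lower mean, with a median of 0.0035, and 0 passed over all genes. At an unadjusted limma p under 0.05 there was 1 gene, against 5.98% of all genes. That gene was Mbtps2, which encodes a protease that cuts Atf6, at 6.17 ± 0.091 in the knock-out and 6.38 ± 0.19 in the wild type (SD, n = 5 each; difference -0.21, limma adjusted p = 0.830). Ero1a and Selenos followed, with differences of 0.10 and 0.087.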

How the data were processed

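The deposited values, 1 column per array for 41345 probe sets, are the authors' processed values of one-colour arrays of biotin-labelled total RNA, per the labels. The deposited log2 values are the authors' own processed values. The log2 scale was inferred from their range, and how they were summarised and normalised was not stated in the sources used, so a step that equalises arrays could hide a change common to all genes. Array medians ran from 3.89 to 3.93 and no arrays were identical. Gene symbols came from the platform annotation: of the probe sets, 23521 had 1 symbol, 1814 several and 16010 none. Genotypes were compared as knock-out minus wild type with lmFit and eBayes in limma 3.58.1 (R 4.3.3), with no filter and no covariate. The limma p-values were adjusted by Benjamini-Hochberg over 22180 genes with a threshold of 0.05. Those of the pair correlations were adjusted over the 6 pairs, and the exact permutation p-values of single genes were not adjusted. With 5 arrays a genotype, the members' standard errors had a median of 0.096. Exact two-sided permutation tests used the 252 splits of 10 arrays, with a smallest possible p of 0.00794. The fit was tested on simulated data. The members and lists were chosen with earlier results of these data known. Values on every array are given for Atf4, Ddit3, Trib3, Asns, Psat1, Shmt2, Xbp1, Atf6, Ern1, Eif2ak3, Hspa5, Hsp90b1 and Herpud1, for the 3 members of each branch with the smallest p-values, and, chosen after its values were seen, for Slc7a5; each other list is named by its 3 lowest p-values. Of 25 other Atf4-linked, 29 other ER and 14 eIF2 genes, 22, 29 and 12 were measured, 4 of them under newer RefSeq symbols. Promoters printed are 3 members of each branch. Herpud1 and Hsp90b1 held most motif matches, with 2 each. Asns, Atf3, Chac1 and Hspa5 were picked by name among the members with 1 match, and others with 1, such as Calr and Pck2, were not printed. Same-numbered arrays of the genotypes correlated with r from -0.045 to 0.17 in their deviations, and for replicates 1 and 5 the own number gave the highest r. Y-linked levels were alike by number in both genotypes, high for 1 and 3 and low for the others. Whether the numbers pair the arrays is therefore not known, and the main fit did not pair them. Alternatives were quantile normalization, median centring, leaving out the dimmest 40% of genes, other rules for probe sets, trend and robust eBayes, array weights, a replicate block, Y-linked level as a covariate, other thresholds and leaving out each array; comparisons within arrays of high or low Y-linked level were added after seeing the data.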

Additional observations from a re-analysis of the deposited data

Results flagged for a closer look

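In 6 of 78 groups of 5 arrays, over the 36 members, Zbtb4 and both branch means, 1 array stood far from the rest by Dixon's test at the 95% level, where chance flags about 1 in 20 groups. Slc7a5, the light chain of the leucine transporter, was at 9.413 on knock-out array 2, against 10.08 on the nearest knock-out array, and this array was also low for most other amino acid genes. Eif2ak3, the gene of Perk, was at 5.408 on wild-type array 3, with the nearest at 5.611. Pdia6, a disulfide isomerase, was at 9.787 on knock-out array 1, with the nearest at 9.545. On wild-type array 1 the lectin chaperone Canx was at 10.31, with the nearest at 10.41, and the glycoprotein degradation gene Edem1 at 7.251, with the nearest at 7.418. Sel1l, of the ER ubiquitin ligase, was at 7.522 on knock-out array 3, with the nearest at 7.714.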

How the results depend on the processing

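Of 650 values of single members under alternatives, 626 kept their sign and none passed the threshold, the smallest adjusted p being 0.589. Many of these signs could not turn. Leaving out dim genes, trend and robust eBayes and the replicate block change the p-value but not the difference. Averaging probe sets likewise leaves the difference of a member with only 1 probe set unchanged. The share that kept its sign is therefore no measure of stability. Quantile normalization turned Ddit3 to 0.0089, Phgdh to 0.017 and Creld2 to 0.015, and the dimmer probe set of Edem1 gave -0.079. With single arrays left out, Ddit3 ran from -0.082 to 0.11, Ppp1r15a from -0.071 to 0.019, Chac1 from -0.26 to 0.038, Phgdh from -0.064 to 0.029, Psph from -0.13 to 0.059, Atf6 from -0.089 to 0.022, Dnajb9 from -0.030 to 0.10, Creld2 from -0.059 to 0.032, Manf from -0.078 to 0.0055 and Sel1l from -0.0073 to 0.075. The amino acid median then ran from -0.20 (without knock-out array 3) to -0.051 (without knock-out array 2), the ER median from -0.071 (without knock-out array 1) to -0.025 (without knock-out array 4), and the gap between them from -0.15 (without knock-out array 3) to -0.0088 (without knock-out array 2); it was -0.14 without wild-type array 5, -0.13 without wild-type array 3, -0.044 without wild-type array 1 and -0.051 without wild-type array 2. The amino acid median was also beyond 1.5 times its value without wild-type array 5, at -0.19. Over all genes, 0 to 1 passed with single arrays left out, the 1 without wild-type array 5, and 1326 genes with 1 member had an unadjusted p under 0.05. Within the 4 arrays of high Y-linked level, 4 of 17 amino acid means (median 0.065) and 8 of 19 ER means (median 0.023) were lower in the knock-out, against 17 (median -0.31) and 14 (median -0.099) within the 6 of low level; the cause was not tested. The correlation of Asns with Hspa5 came to 0.408 without the 2 farthest arrays. With the replicate block Psat1 had an adjusted p of 0.850, and the block changed no call; the numbers mark no known pairing, with r of 0.17, -0.045, -0.0041, -0.013 and 0.059 for replicates 1 to 5. Signal over background did not come with the values, so which log2 levels are background is not known.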

Other observations

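Upstream of Atf4, the machinery that controls eIF2 was described from a list of 14 genes, of which 12 were measured. Of these, 9 had a lower mean in the knock-out, against 49.3% of all genes, with a median log2 difference of -0.040. In limma 0 passed over all genes and 0 had an unadjusted p under 0.05, against 5.98% of all genes. Without knock-out array 2 the count of lower means was 6, against 48.6% of all genes, and the median 0.0069. Eif2ak4, the gene of the amino acid sensor kinase Gcn2, had log2 values of 6.03, 5.75, 5.95, 6.01 and 5.74 on knock-out arrays 1 to 5 and 5.95, 6.10, 6.09, 6.06 and 6.14 on wild-type arrays 1 to 5 (difference -0.17, standard error 0.082, limma adjusted p = 0.830, exact permutation p = 0.0397). Gcn1, the ribosome-bound partner that activates Gcn2, had values of 7.10, 6.84, 6.73, 6.83 and 6.81 and then 6.85, 7.10, 7.15, 7.01 and 7.07 (difference -0.17, standard error 0.088, limma adjusted p = 0.836). In both genes 1 or more knock-out arrays lay within the wild-type range. Eif2b3, a subunit of the exchange factor eIF2B, differed by 0.10 (limma adjusted p = 0.879).

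The difference between genotypes was also compared between arrays of high and low Y-linked level, a test added after seeing the data. A genotype by Y-level interaction in limma passed for 0 of 36 members and 0 of 22180 genes; 3 members, Psph, Asns and Shmt2, and 5.87% of all genes had an unadjusted p under 0.05. For Asns the knock-out minus wild-type difference was 0.50 log2 units higher on the high-level arrays (standard error 0.21, adjusted p = 0.841), with 2 arrays of each genotype at the high level and 3 at the low.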
